A study of Homo sapiens with 13 samples.

Results

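The genes described here are 46 core components of the phosphoinositide 3-kinase (PI3K), AKT and mTOR pathway, taken as a fixed list of kinases, adaptors and mTOR complex genes. Lipid phosphatases and growth factor receptors were left out of the list. All 46 symbols were found in each of the 3 deposited count tables, out of 16998 symbols that every table holds. Their levels were read in 13 RNA sequencing libraries of A549 cells, a line from a human lung adenocarcinoma, with 1 library per group.

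PI3K lipid kinases respond to growth factor receptors by making the membrane lipid PIP3. PIP3 recruits PDPK1 and AKT, and active AKT restrains the TSC complex, the GSK3 kinases and the FOXO transcription factors. The TSC complex in turn holds back RHEB, the activator of mTOR complex 1 (mTORC1), which also needs amino acid signals relayed by the Rag GTPases and promotes translation through the 4E-BP and S6 kinase proteins. Most of this control runs through lipids and phosphorylation, which RNA levels do not measure.

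The study asked how a unit on chromosome 17 acts in lung cancer cells. The unit holds miR-301a and miR-454 together with PRR11 and SKA2. All cells were A549 in DMEM/F12 with 10% serum, and poly(A) RNA was sequenced. In the first set, a CRISPR interference line aimed at the shared PRR11 and SKA2 promoter (CRISPRi_PRR11+SKA2 promoter-sgRNA#1, here the promoter guide) is set against CRISPRi_Mock sgRNA (the mock guide). The second set holds lines transduced with the lentiviral vector pCDH-CMV for PRR11 (LV-PRR11), SKA2 (LV-SKA2) or the pair (LV-P+S), against LV-vector-PS. The third holds pCDH-CMV lines for miR-301a (LV-miR301a), miR-454 (LV-miR454) or the pair (LV-3+4), against LV-vector-34. The fourth holds lines with the precursor of miR-301a or miR-454 knocked out (CRISPRd_miR301a-#2, CRISPRd_miR454-#1), against CRISPRd_Control. The labels do not say whether a line is a clone or a pool.

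Levels are CPM, counts scaled to a common library size within each table. Differences are log2 ratios of CPM + 0.5, which understate the change of low genes. A gene was called past a fold when this ratio reached 2-fold or 1.5-fold and the exact 95% counting interval of the CPM ratio excluded equality. With 1 library per group no difference has a replicate check, so every ratio compares 2 libraries and the interval covers counting error only. In these bulk samples, fewer cells of a kind and less RNA per cell cannot be told apart. The tables were scaled separately and list different genes, so levels are compared between libraries of 1 table.

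Named counts per library ran from 18672570 to 21717807. With the promoter guide, PRR11 stood at 0.643% and SKA2 at 0.292% of the mock guide. Relative to the vector, PRR11 was 109% in LV-PRR11 and 110.0% in LV-P+S. SKA2 was at 84.4% and 88.7% of the vector in LV-SKA2 and LV-P+S, below it, so these are called the libraries labelled LV-SKA2 and LV-P+S. MIR454 had 468 counts in LV-miR454 and 28 with the label LV-miR301a. It had 0 with the label LV-3+4, which allows up to 0.157 CPM, so both are called libraries labelled so below. For MIR301A the counts were 29 with the label LV-miR301a, 34 with LV-3+4 and 0 in LV-miR454. Poly(A) counts do not measure mature microRNA, and the knockouts are unchecked by them. PRR11 stood at 72.4% and 68.5% of CRISPRd_Control in the knockouts of miR-301a and miR-454, and SKA2 at 99.1% and 70.0%, so levels of these genes differed there too. The A549 markers KRT8 (3743 to 7198 CPM) and ALDH1A1 (6705 to 12762 CPM) were high throughout, while others of the 9 fixed markers were low, with EPCAM at 2.22 to 14.2 CPM and KRT19 at 0 in 1 library. The T cell marker CD3E was at 0 counts in the 9 libraries that list it, the alveolar type 2 marker SFTPC reached 0.159 CPM and the endothelial marker VWF 0.158 CPM. Other markers fixed for those and further cell types were present, with CD68 (immune) at 23.0 to 144 CPM, COL1A1 (fibroblast) at 9.10 to 75.5 and ZIC2 (HEK293 packaging cells) at 7.94 to 32.4.

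The microRNAs of the unit share their seed, the bases that pair with target messages, so 1 set of sites serves both. The mature sequences (RefSeq, GRCh38.p14) are shown with the seed, bases 2 to 8, in capitals. Below them stand the 8-base sites in members, since these members could respond to the microRNA libraries directly. Capitals mark the match, TTGCACT followed by A, on the message strand of the longest 3′ UTR (GENCODE 29, GRCh38).
hsa-miR-301a-3p, chr17:59151149-59151171, minus strand: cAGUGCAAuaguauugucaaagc
hsa-miR-454-3p, chr17:59137787-59137809, minus strand: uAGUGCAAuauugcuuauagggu
PIK3C2A, chr11:17087293-17087322, minus strand: gtggagcctctTTGCACTActactatcaat
PIK3CB, chr3:138655314-138655343, minus strand: tcattttgcacTTGCACTAaattgaacatg
RRAGD, chr6:89367978-89368007, minus strand: gctgcgccatgTTGCACTAaaggaagagga
TSC1, chr9:132891764-132891793, minus strand: agccacgcattTTGCACTAggaagaatcag
TSC1, chr9:132891348-132891367, minus strand: aatttattgttTTGCACTAc

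TTGCACT occurred in the 3′ UTR of 7 of 46 members (15.2%), against 14.1% of 19076 UTRs, and TTGCACTA, which contains it, in 4 members (8.70%) against 2.81%. The median member UTR is 1990 bases long, against 1107 over all. TSC1, a subunit of the TSC complex, holds 3 sites of either kind. PIK3C2A, PIK3CB and RRAGD hold 2 each, and PIK3C3, SGK3 and TBC1D7 hold 1 each. The 2 in PIK3CB, which start at bases 51 and 57 of its UTR, overlap.

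Per kilobase of exon, the median control level was highest for the translation genes EIF4B (153 CPM per kb) and EIF4EBP1 (152), which overlapped over the 4 controls. The next were RRAGA (58.5), GSK3A (55.4) and RHEB (51.8), also with overlapping ranges. AKT1 (38.0) and AKT2 (36.1) overlapped as well, while the class I catalytic genes ran from 6.34 for PIK3CB through 2.55 for PIK3CD to 1.70 for PIK3CA. The lowest were RRAGD (0.684) and PIK3R3 (0.656). These medians run over 3 separately scaled tables. Within the table of the 7 microRNA and knockout libraries the highest CPM exceeded the lowest by 1.19 times for TSC2, the narrowest span among the members, and by 3.97 times for FOXO4 and 4.22 times for PIK3R3, the widest.

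Past 2-fold stood 4 of 46 in at least 1 of the 9 treated libraries (FOXO4, SGK1, SGK3 and PIK3C2B), against 22.3% of the 11946 genes measured in all 9 pairs. Past 1.5-fold in at least 1 stood 20 of 46, against 52% of those genes, and 26 members passed it in none. All 46 were measured in every pair, with at least 20 reads over both libraries and 1 CPM in either. The summed CPM of 13 roles within the list passed 1.5-fold in 0 of 9 treated libraries. Between the control libraries CRISPRd_Control and LV-vector-34, 1 of 46 stood past 2-fold (4.35% of all genes) and 3 past 1.5-fold (12.3%).

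**Figure D1:**
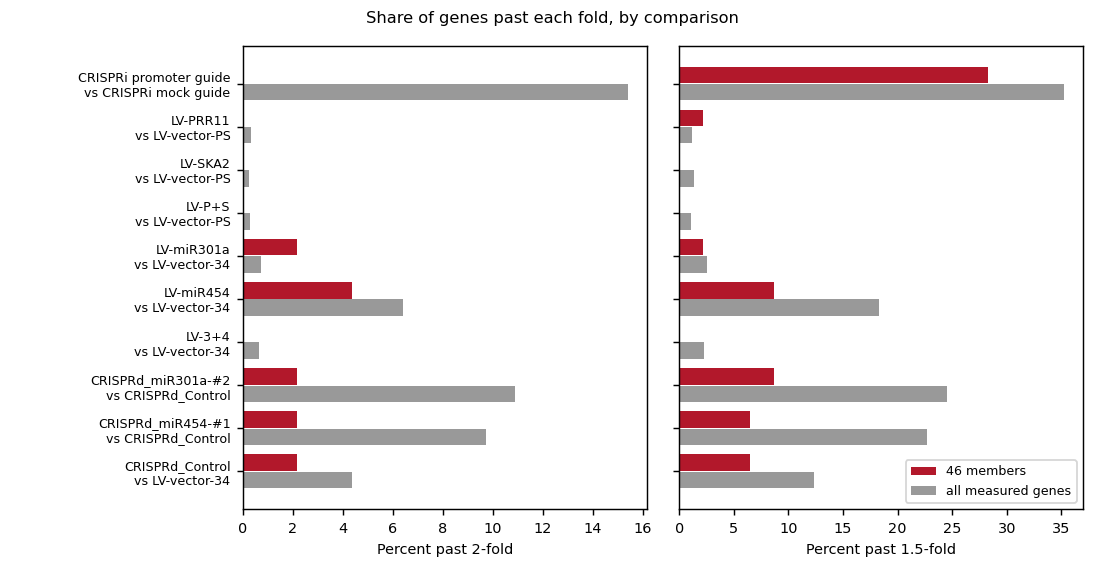
Percent of the 46 members (red) and of all measured genes (grey) past 2-fold (left) and 1.5-fold (right) in each comparison of 2 libraries. With the promoter guide no member passed 2-fold (3 with a pseudocount of 0.1 CPM), against 15.4% of all genes, and 28.3% passed 1.5-fold, against 35.2%. The members past 1.5-fold there include PIK3R2, whose call is uncertain.

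With the PRR11 and SKA2 promoter repressed, 0 of 46 members passed 2-fold (15.4% of 15003 measured genes). This 0 rests on the pseudocount: the plain CPM ratios of PIK3R2 (2.40), FOXO4 (2.13) and PIK3CD (2.03) exceeded 2, and with 0.1 CPM in place of 0.5, 3 members passed (18.2% of all genes). Past 1.5-fold stood 13 (28.3%, against 35.2% of all genes), 8 of them higher (18.4% of all genes) and 5 lower (16.8%). At 5 CPM or more in either library it was 12 of 43 (27.9%, against 33.1% of such genes). The members moved in both directions, with a median log2 ratio of 0.029 (all genes -0.038) and a median size of 0.30 (all genes 0.41). The lower members included RPTOR, PIK3CB, EIF4E and DEPDC5, and the higher members PIK3CD, SGK1, FOXO1 and FOXO4. By role, the shared mTOR core stood at 71.4% (67.3 to 75.8%) of the mock guide, GATOR1 at 72.8% (67.2 to 78.8%) and translation outputs at 76.7% (75.0 to 78.4%). The most abundant members weigh most in these sums, EIF4B among the translation outputs and NPRL3 in GATOR1. EIF4EBP2 was level at 101% and NPRL2 at 98.9%, while the other members of those roles were lower. The Rag GTPases and LAMTOR1 summed to 126% (121 to 132%).

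Markers of other cells moved in the same pair of libraries. The 4 immune genes summed to 27.5 CPM with the mock guide and 80.2 with the promoter guide, nearly all CD68, with CD3E and PTPRC at or near 0. The 4 fibroblast genes summed to 12.0 and 30.5 CPM, and the 9 A549 genes to 30822 and 27121. Their part in the members' ratios was not tested.

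**Figure D2:**
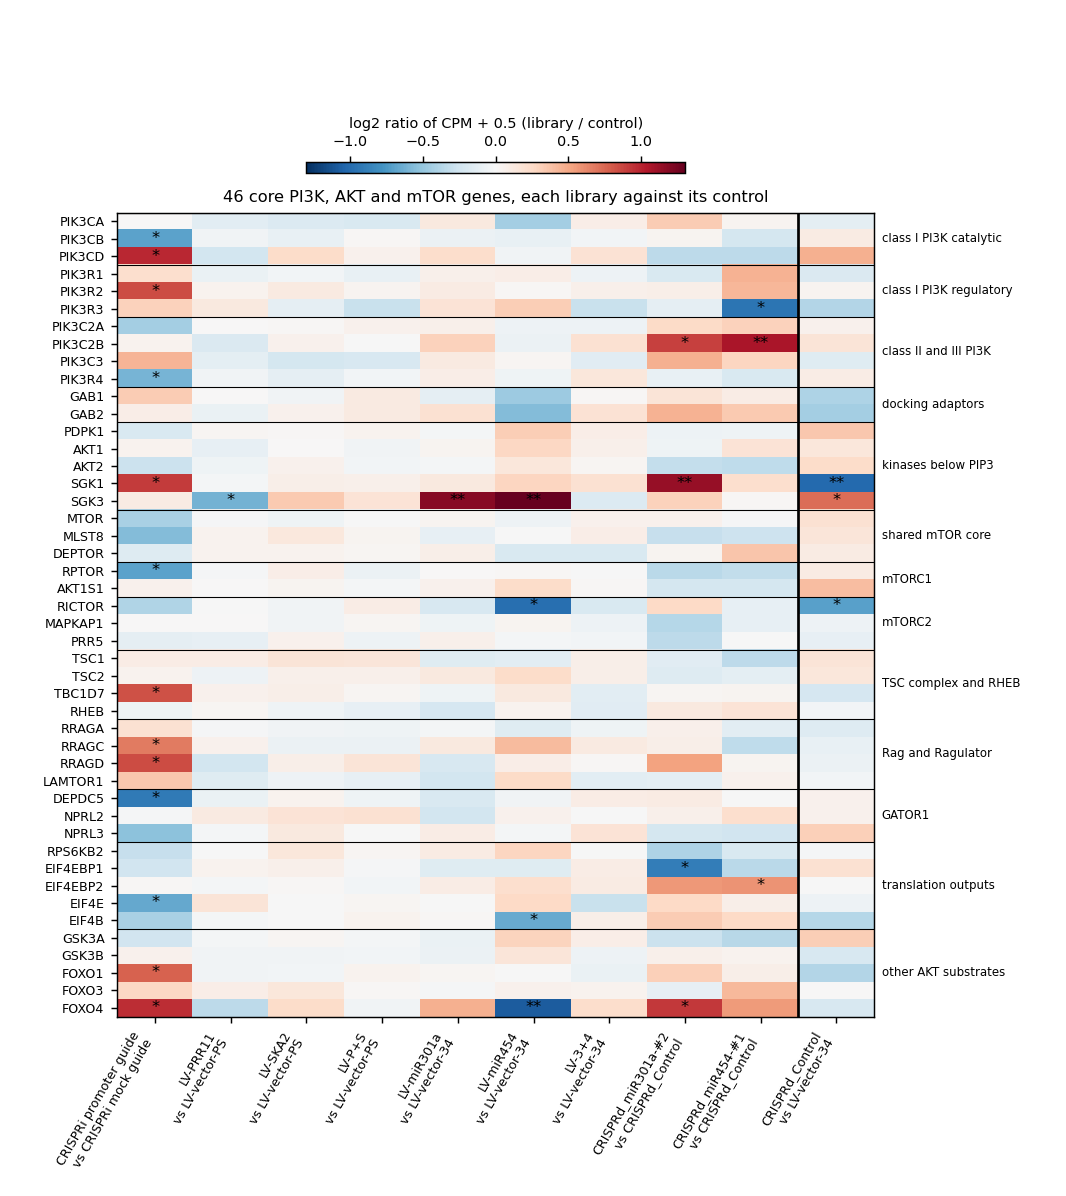
Log2 ratio of CPM + 0.5 for each of the 46 members (rows, grouped by role) in 9 treated libraries against their controls and, right of the line, between 2 control libraries; 1 star marks a member past 1.5-fold and 2 stars past 2-fold. The first column holds 13 stars, the columns of the PRR11/SKA2 set hold 1.

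Among the class I catalytic subunits, which make PIP3, PIK3CD and PIK3CB moved in opposite directions with the promoter guide. PIK3CD (p110 delta, best known in leukocytes; chr1:9651732-9729114, plus strand) was at 8.96 CPM with the mock and 18.2 with the promoter guide, a ratio of 2.03 (counting interval 1.70 to 2.43) and a log2 ratio of 0.98. It measured 14.4, 12.1, 17.0 and 15.0 CPM in LV-vector-PS, LV-PRR11 and the libraries labelled LV-SKA2 and LV-P+S, an order kept for this set below. It measured 14.6, 17.1, 14.2 and 16.6 in LV-vector-34, the library labelled LV-miR301a, LV-miR454 and the library labelled LV-3+4, and 20.3, 15.9 and 15.9 in CRISPRd_Control and the knockouts of miR-301a and miR-454, orders also kept below. Its plain CPM ratio exceeds 2, and the pseudocount holds the log2 ratio under the threshold.

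PIK3CB (p110 beta; chr3:138652699-138834938, minus strand) was lower with the promoter guide, at 23.1 against 37.6 CPM, a ratio of 0.613 (counting interval 0.547 to 0.687). Its level in the PRR11/SKA2 set was 48.8, 47.1, 45.7 and 49.2 CPM. In the microRNA set it was 35.6, 33.9, 33.2 and 34.8, and in the knockout set 38.4, 39.3 and 32.7 CPM. No other treated library passed 1.5-fold for this gene. PIK3CA (p110 alpha), the subunit most often mutated in cancer, was level with the promoter guide, at 14.6 and 14.7 CPM. The PRR11/SKA2 set gave 26.6, 24.0, 23.5 and 23.2, the microRNA set 16.3, 17.8, 11.8 and 17.3 and the knockout set 14.8, 18.8 and 15.2 CPM. LV-miR454 was the lowest, at a log2 ratio of -0.44, short of 1.5-fold. The summed class I catalytic level was 91.4% (84.5 to 99.0%) of the mock guide.

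Of the regulatory subunits, PIK3R1 (p85 alpha) ran from 10.9 to 21.4 CPM over the 13 libraries and passed 1.5-fold in none. PIK3R2 (p85 beta; chr19:18153118-18170540, plus strand) was called higher with the promoter guide at 0.682 and 1.63 CPM. In that table, however, the entry AC007192.1, which shares 3947 of the 4524 exon bases of PIK3R2 (87.2%), held 47.2 and 54.7 CPM. Summed, the ratio was 1.18 (counting interval 1.08 to 1.28), which is not past 1.5-fold, so the PIK3R2 call is uncertain. Elsewhere PIK3R2 measured 68.3, 70.5, 73.9 and 70.0 CPM in the PRR11/SKA2 set, 64.9, 70.0, 65.7 and 68.1 in the microRNA set and 66.3, 70.1 and 89.9 in the knockout set.

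PIK3R3 (p55 gamma) was low throughout. It measured 5.60 and 6.98 CPM in the CRISPRi pair, 4.56, 5.02, 4.17 and 3.63 in the PRR11/SKA2 set, 3.24, 3.75, 4.17 and 2.56 in the microRNA set and 2.38, 2.16 and 0.988 in the knockout set. In the miR-454 knockout it had 18 counts against 47, a log2 ratio of -0.95. The class I regulatory sum was nevertheless 133% (125 to 142%) of CRISPRd_Control there, the highest of the 13 roles in that library, with PIK3R2 at 89.9 CPM.

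The class II and III enzymes make other phosphoinositides for membrane traffic and autophagy. PIK3C2B (class II beta; chr1:204422628-204494724, minus strand) set the miRNA knockouts apart from the other libraries of their table. It measured 21.8, 40.7 and 46.2 CPM in the knockout set, ratios of 1.87 (counting interval 1.66 to 2.11) for miR-301a and 2.12 (counting interval 1.89 to 2.39) for miR-454. The microRNA set gave 19.4, 23.9, 18.3 and 22.2 CPM, the PRR11/SKA2 set 29.2, 25.6, 30.3 and 29.2, and the CRISPRi pair 32.7 and 33.7. Both knockouts were above all 5 other libraries of their table. Set against LV-vector-34 in place of CRISPRd_Control, the log2 ratios were 1.05 and 1.23, past 2-fold in each. The knockouts share their control, so the pair is not 2 independent comparisons. PIK3C2B has no TTGCACT in the UTR searched. PIK3R4, the scaffold of the class III kinase, stood at a log2 ratio of -0.61 with the promoter guide, past 1.5-fold, and the kinase itself, PIK3C3, at 0.44. PIK3C2A was at -0.44 there, short of 1.5-fold.

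The docking adaptors GAB1 and GAB2 bring PI3K to activated receptors. GAB2 measured 12.9 and 13.7 CPM in the CRISPRi pair and 20.1, 18.9, 20.8 and 21.8 in the PRR11/SKA2 set. It measured 18.3, 21.0, 12.3 and 20.9 CPM in the microRNA set and 13.3, 18.4 and 17.1 in the knockout set. LV-miR454 was the lowest of the 7 libraries of its table, close to CRISPRd_Control. The sum of both adaptors was 68.0% (59.1 to 78.0%) of the vector in LV-miR454, and 73.3% (64.1 to 83.8%) in CRISPRd_Control, a control library. GAB1 ran from 3.36 to 9.48 CPM.

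The kinases that act below PIP3 split into steady and variable members. PDPK1, which phosphorylates the activation loop of AKT, measured 53.7 and 46.9 CPM in the CRISPRi pair and 53.2, 54.2, 53.9 and 55.1 in the PRR11/SKA2 set. The microRNA set gave 43.8, 43.1, 54.8 and 46.6 and the knockout set 55.8, 53.3 and 53.8 CPM. AKT1 stood at 175 and 179.9 CPM in the CRISPRi pair, 173, 161, 174 and 168 in the PRR11/SKA2 set, 172, 176, 207 and 179 in the microRNA set and 189.7, 182 and 215 in the knockout set. No treated library moved it past 1.5-fold, and its largest log2 ratio was 0.27 in LV-miR454. AKT2, the isoform most tied to insulin signalling, stood at 236 and 194 CPM in the CRISPRi pair and 203, 195, 210.5 and 198 in the PRR11/SKA2 set. Its levels were 186, 182, 206 and 189 CPM in the microRNA set and 219, 176 and 174 in the knockout set. The miR-454 knockout held the highest AKT1 and the lowest AKT2 of the 7 libraries of its table.

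SGK1 (chr6:134169246-134318112, minus strand), a kinase with AKT-like substrates that mTORC2 activates, was higher with the promoter guide, at 89.2 against 47.3 CPM, a ratio of 1.89 (counting interval 1.74 to 2.04). In the knockout set it measured 20.01, 44.5 and 23.3 CPM, a log2 ratio of 1.13 for miR-301a, past 2-fold, and 0.22 for miR-454. The microRNA set gave 41.0, 44.7, 49.9 and 47.2 CPM and the PRR11/SKA2 set 42.3, 41.5, 44.8 and 44.3. CRISPRd_Control was the lowest of the 7 libraries of its table, at a log2 ratio of -1.02 to LV-vector-34. Against LV-vector-34 the miR-301a knockout was at 0.12 and no longer called, and the miR-454 knockout at -0.80, called lower past 1.5-fold.

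SGK3, a relative of SGK1 that binds the lipid made by class III PI3K (chr8:66667596-66862022, plus strand), was past 2-fold in LV-miR454 and in the library labelled LV-miR301a, and past 1.5-fold lower in LV-PRR11. It measured 2.25, 5.75, 6.29 and 1.93 CPM in the microRNA set and 6.63, 4.17, 8.55 and 7.58 in the PRR11/SKA2 set. The knockout set gave 4.05, 5.12 and 4.12 and the CRISPRi pair 4.67 and 5.08 CPM. The tables also list C8orf44-SGK3, a read-through transcript that contains SGK3 exons, at 3.77, 2.16, 1.85 and 4.64 CPM in the microRNA set. It had 63 counts in LV-PRR11, 10 in the library labelled LV-P+S and 0 in LV-vector-PS, which allows up to 0.159 CPM. With both entries summed, the log2 ratios were 0.367 in the library labelled LV-miR301a, 0.406 in LV-miR454 and 0.172 in LV-PRR11. None of these passed 1.5-fold. The last was no longer lower, and its counting interval (ratio 0.886 to 1.46) includes equality, so all SGK3 calls are uncertain.

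**Figure D3:**
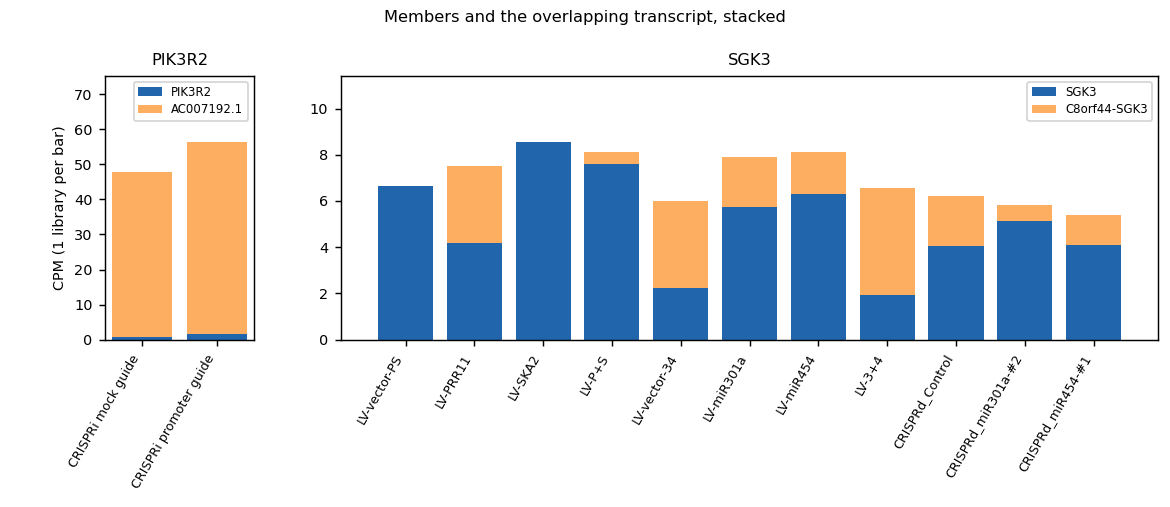
Left, CPM of PIK3R2 (blue) and the overlapping entry AC007192.1 (orange) in the CRISPRi pair; right, CPM of SGK3 (blue) and the read-through C8orf44-SGK3 (orange) in the other 11 libraries, 1 library per bar. The summed SGK3 bars run from 5.38 to 8.55 CPM, while the blue part alone runs from 1.93 to 8.55.

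Of the genes both mTOR complexes share, MTOR, the kinase, stood at 63.1 CPM with the mock guide and 47.0 with the promoter guide, a log2 ratio of -0.42 that did not reach 1.5-fold. It measured 82.6, 81.7, 79.2 and 82.3 CPM in the PRR11/SKA2 set, 64.2, 65.8, 61.3 and 66.7 in the microRNA set and 73.6, 76.4 and 72.7 in the knockout set. MLST8, a subunit bound to the kinase domain, was at -0.56 in the same pair. DEPTOR, an inhibitor of both complexes, ran from 2.49 to 9.36 CPM and passed 1.5-fold in no treated library.

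RPTOR (Raptor, the mTORC1 scaffold; chr17:80544819-80966371, plus strand) had 80.1 CPM with the mock guide and 49.1 with the promoter guide, a ratio of 0.613 (counting interval 0.567 to 0.662). The PRR11/SKA2 set gave 79.4, 78.7, 84.1 and 75.4 CPM, the microRNA set 67.9, 68.4, 68.6 and 67.8. The knockout set gave 73.3, 57.3 and 58.5 CPM, with both knockouts below CRISPRd_Control but short of 1.5-fold (-0.35 and -0.32). The mTORC1 role, RPTOR with the AKT substrate AKT1S1 (PRAS40), was the lowest of the 13 roles in the knockouts, at 83.2% (79.8 to 86.8%) and 83.6% (80.2 to 87.2%) of CRISPRd_Control. CRISPRd_Control itself stood at 124% (119 to 129.7%) of LV-vector-34 for this role, the highest of the 13 roles.

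RICTOR (the mTORC2 scaffold; chr5:38937919-39074408, minus strand) was lower in LV-miR454, at 23.6 CPM against 47.1 in the vector, a ratio of 0.501 (counting interval 0.447 to 0.562) and a log2 ratio of -0.98, just short of 2-fold. The microRNA set as a whole read 47.1, 40.8, 23.6 and 41.0 CPM, so the library labelled LV-3+4 was near the vector. The knockout set read 28.7, 34.5 and 26.6, the PRR11/SKA2 set 49.7, 49.4, 48.0 and 53.3 and the CRISPRi pair 24.0 and 18.2 CPM. The control CRISPRd_Control was also called below LV-vector-34, at a log2 ratio of -0.71, and against it LV-miR454 stood at -0.28, which is no call. RICTOR has no TTGCACT in the UTR searched. The other mTORC2 subunits, MAPKAP1 (59.2 to 95.2 CPM) and PRR5 (16.6 to 25.2 CPM), passed 1.5-fold in no treated library.

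In the TSC complex, TSC1 (17.1 to 25.4 CPM) and TSC2 (64.9 to 88.4 CPM) passed 1.5-fold in no treated library. TSC1, with its 3 sites, of which the 8-base ones are shown above, was at a log2 ratio of -0.16 in the library labelled LV-miR301a, -0.14 in LV-miR454 and 0.078 in the library labelled LV-3+4. It was at -0.14 and -0.34 in the knockouts, below the control in each. The third subunit, TBC1D7, was higher with the promoter guide at 33.7 against 18.7 CPM, past 1.5-fold. RHEB, the GTPase that the complex switches off, measured 130.3 and 126 CPM in the CRISPRi pair, 138, 140.2, 133 and 128 in the PRR11/SKA2 set, 121, 104, 125 and 109 in the microRNA set and 118, 128 and 133 in the knockout set. RHEB passed 1.5-fold in no treated library.

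The Rag GTPases and the Ragulator subunit LAMTOR1 place mTORC1 on the lysosome when amino acids are present. RRAGC and RRAGD, which pair with RRAGA, were past 1.5-fold higher with the promoter guide, at log2 ratios of 0.67 and 0.85, and RRAGA was at 0.19. LAMTOR1 measured 73.8 and 94.5 CPM in the CRISPRi pair and 70.1, 62.8, 67.1 and 65.1 in the PRR11/SKA2 set. It measured 63.2, 53.5, 75.4 and 57.4 CPM in the microRNA set and 61.4, 56.2 and 63.9 in the knockout set. All 4 members of this role stood above the mock guide. Of GATOR1, which switches the Rags off, 1 of 3 members passed 1.5-fold. DEPDC5 (chr22:31753867-31908033, plus strand) had 5.26 CPM with the promoter guide against 10.4, a ratio of 0.505 (counting interval 0.399 to 0.636), and NPRL3 was at -0.54, short of 1.5-fold, and NPRL2 level at -0.015. Elsewhere DEPDC5 gave 9.02, 8.49, 9.36 and 8.64 CPM in the PRR11/SKA2 set, 9.42, 8.16, 9.08 and 10.1 in the microRNA set and 9.78, 10.6 and 9.77 in the knockout set.

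**Figure D4:**
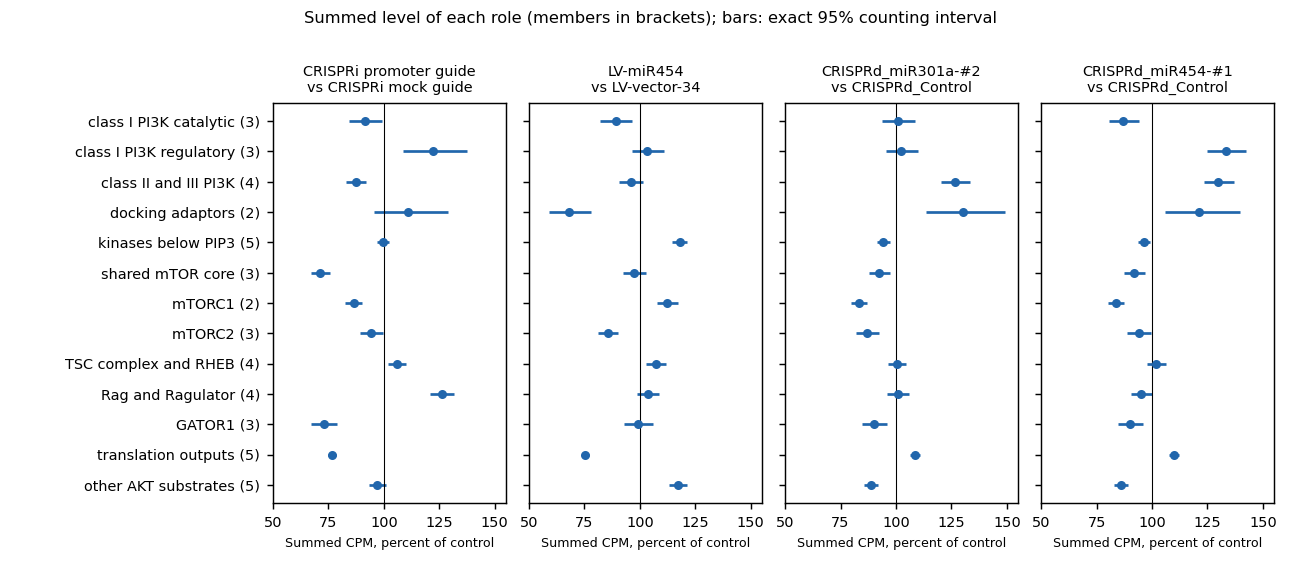
Summed CPM of each role as a percent of its control (points) with the exact 95% counting interval (bars) in 4 library pairs; the line marks 100%. With the promoter guide the shared mTOR core and GATOR1 lie at 71.4% and 72.8% and the Rag and Ragulator role at 126%, while no role reaches 1.5-fold in any panel.

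Among the translation outputs, EIF4E, the cap-binding factor, had 72.5 CPM with the mock guide and 45.3 with the promoter guide, a ratio of 0.625 (counting interval 0.576 to 0.678). It measured 62.4, 70.3, 62.4 and 63.8 CPM in the PRR11/SKA2 set, 53.0, 53.0, 63.4 and 43.4 in the microRNA set and 50.7, 60.6 and 53.5 in the knockout set. EIF4B, a helicase cofactor that S6 kinases phosphorylate, had 544 and 405 CPM in the CRISPRi pair, 688, 676, 688 and 710.4 in the PRR11/SKA2 set, 759, 766, 483 and 802 in the microRNA set and 588, 739 and 705 in the knockout set. LV-miR454 was below the other 3 libraries of its set, at a ratio of 0.636 (counting interval 0.620 to 0.653) to the vector, past 1.5-fold. It carried the role's sum, 75.2% (73.7 to 76.8%) of the vector. Against CRISPRd_Control the call was lost.

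EIF4EBP1 (4E-BP1, the repressor that mTORC1 releases from EIF4E; chr8:38030341-38060365, plus strand) was lower in the miR-301a knockout. The knockout set read 197, 105 and 154 CPM, a log2 ratio of -0.90 for miR-301a and -0.36 for miR-454. Against LV-vector-34 the first was -0.71 and still past 1.5-fold. The microRNA set gave 172, 154, 154 and 185 CPM, the PRR11/SKA2 set 138, 142, 145 and 137 and the CRISPRi pair 90.01 and 75.5. Its relative EIF4EBP2 stood the other way in the knockouts, at 46.1, 68.5 and 69.4 CPM, with log2 ratios of 0.57 (not past 1.5-fold) and 0.59 (past it). Against LV-vector-34 these were 0.56 and 0.58, neither past 1.5-fold, so the call was lost. EIF4EBP2 measured 46.2, 49.4, 53.8 and 49.7 CPM in the microRNA set, 69.5, 68.4, 70.2 and 67.7 in the PRR11/SKA2 set and 54.7 and 55.3 in the CRISPRi pair. RPS6KB2, an S6 kinase, ran from 34.1 to 58.0 CPM and passed 1.5-fold in no treated library. The S6 kinase gene RPS6KB1 is not a member. It was past 1.5-fold lower in the miR-454 knockout, at 38.2 against 65.8 CPM in CRISPRd_Control (log2 ratio -0.78), and in no other treated library.

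Of the other AKT substrates, FOXO4 (chrX:71096197-71103535, plus strand), a transcription factor that AKT keeps out of the nucleus, was lower in LV-miR454. It had 2.43 CPM in LV-miR454 against 5.70 in the vector (46 against 109 counts), a log2 ratio of -1.08 and past 2-fold. The microRNA set read 5.70, 8.06, 2.43 and 6.78 CPM, with LV-miR454 the lowest of the 7 libraries of its table. In the knockout set FOXO4 read 4.86, 9.65 and 7.35 CPM, higher in the miR-301a knockout at 0.92 and past 1.5-fold. The PRR11/SKA2 set gave 8.91, 6.95, 10.6 and 8.64 CPM and the CRISPRi pair 2.53 and 5.40, a log2 ratio of 0.96. Against the control it was not paired with, LV-miR454 stood at -0.87 and the miR-301a knockout at 0.71, each past 1.5-fold only. FOXO1 was past 1.5-fold higher with the promoter guide at 0.77, while FOXO3, at 0.27, was not.

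GSK3A, a glycogen synthase kinase that AKT inhibits, measured 131 and 110.2 CPM in the CRISPRi pair and 224, 219, 227 and 219.9 in the PRR11/SKA2 set. It measured 213, 199.9, 261 and 226 CPM in the microRNA set and 267, 219.8 and 207 in the knockout set, and GSK3B ran from 49.0 to 81.3 CPM over all libraries. Neither passed 1.5-fold in a treated library.

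**Figure D5:**
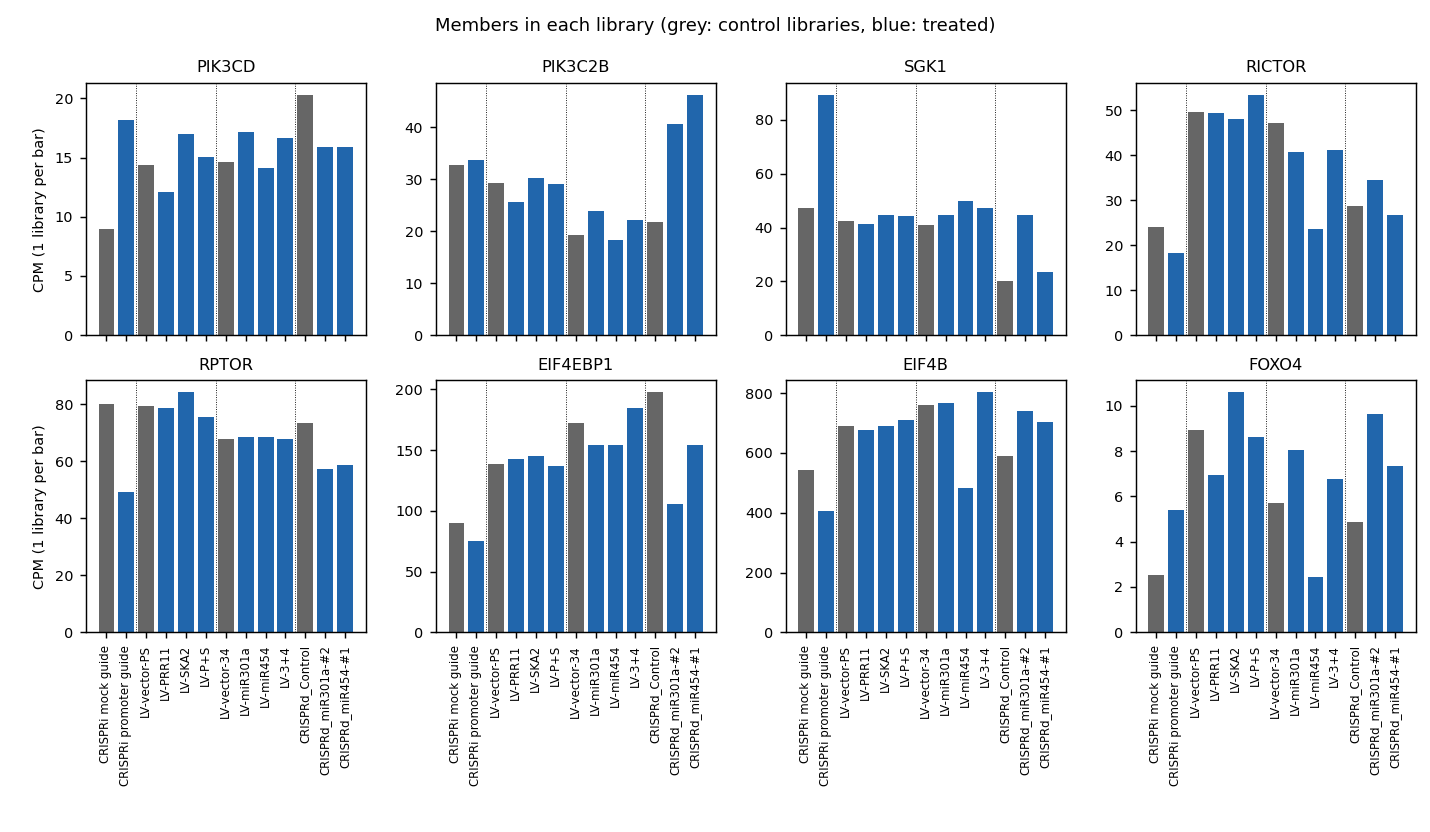
CPM of 8 members in each of the 13 libraries, 1 library per bar, with control libraries in grey and treated ones in blue; dotted lines part the 4 sets, and levels compare within a table only. RICTOR and EIF4B are low in LV-miR454 (23.6 and 483 CPM), PIK3C2B is high in both knockouts (40.7 and 46.2 CPM), and SGK1 is low in CRISPRd_Control (20.01 CPM).

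In the lentiviral PRR11/SKA2 set the members differed little from the vector, as did PRR11 itself. PRR11 was at 109% (103 to 116%) of the vector in LV-PRR11 and 103% (97.2 to 110%) in the library labelled LV-SKA2. SKA2 was below the vector in the libraries labelled for it, so this set says little about a rise of either gene. Past 2-fold stood 0 of 46 in LV-PRR11 (0.299% of all genes), 0 in the library labelled LV-SKA2 (0.252%) and 0 in the library labelled LV-P+S (0.261%). Past 1.5-fold stood 1 of 46 in LV-PRR11 (1.18% of all genes), SGK3 alone, and 0 in the libraries labelled LV-SKA2 (1.38%) and LV-P+S (1.04%). At 5 CPM or more in either library it was 1 of 45 (0.214% of such genes), 0 of 44 (0.355%) and 0 of 44 (0.142%). The median size of the log2 ratio over members was 0.051, 0.061 and 0.047 in the 3 libraries, against 0.073, 0.092 and 0.071 over all genes.

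The 4 libraries form a layout of both labels, fitted with edgeR's quasi-likelihood test on 13332 genes with Benjamini-Hochberg adjustment. The single residual degree of freedom is the departure from additivity, not a spread between cultures. For the PRR11 label 0 of 46 members passed an adjusted p of 0.05 (1.16% of all genes). An unadjusted edgeR p under 0.05 was found for 5 of 46, against 1371 of 13332 genes with SGK3 and its read-through summed. DESeq2 called 0 of all 13332 genes, so it tells nothing of the members. The smallest adjusted p values were those of SGK3 (0.263, log2 -0.38), FOXO4 (0.289, log2 -0.32) and PIK3CD (0.402, log2 -0.21). For the SKA2 label 5 of 46 had an unadjusted edgeR p under 0.05, against 2520 of 13332 genes with SGK3 summed likewise. After adjustment 1 of 46 passed (5.9% of all genes), SGK3, at log2 0.59 and an edgeR adjusted p of 0.00392. With the read-through summed its effect was 0.24 and its edgeR adjusted p 0.348, and DESeq2, which gave an adjusted p to 926 of 13332 genes, gave SGK3 none (log2 0.61, unadjusted p = 0.0714). PIK3CD, at log2 0.28, had an edgeR adjusted p of 0.0644, which misses the threshold. The SKA2 counts go against this label, so no direction is drawn from it.

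Among the lentiviral microRNA libraries, LV-miR454 held the most members past a threshold. Past 2-fold stood 2 of 46 there (6.39% of all genes) and past 1.5-fold 4 (18.3%), namely SGK3 higher and FOXO4, RICTOR and EIF4B lower. The median size of the log2 ratio was 0.15 (all genes 0.25). SGK3 was the 1 member past 2-fold (0.731%) and past 1.5-fold (2.58%) in the library labelled LV-miR301a. For the label LV-3+4, 0 members passed 2-fold (0.646%) or 1.5-fold (2.3%). At 5 CPM or more in either library, 4 of 43 passed 1.5-fold in LV-miR454 (14.2% of such genes). It was 1 of 44 (0.774%) with the label LV-miR301a and 0 of 42 (0.527%) with LV-3+4. These 3 libraries share LV-vector-34. The 4 fibroblast genes summed to 35.2 CPM in the vector and 84.4, 78.9 and 48.7 in the treated libraries, and their part was not tested. In the additive fit of both labels (edgeR's quasi-likelihood test, 14651 genes) 0 of 46 members passed for miR-301a (0% of all genes). An unadjusted edgeR p under 0.05 was found for 2 of 46, against 578 of 14650 genes with SGK3 and its read-through summed. For miR-454 0 passed as well (0.00683%), with 0 of 46 at an unadjusted edgeR p under 0.05 (360 of 14650 genes with SGK3 summed likewise). The MIR454 counts, 28 with the label LV-miR301a and 0 with LV-3+4, go against this layout, so nothing about miR-454 is concluded from it. DESeq2 called 0 members for each label, and 2 and 1 of all genes.

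The 7 members with a seed site had a median log2 ratio of -0.051 in the library labelled LV-miR301a (3 of 7 above 0) and 0.024 in LV-miR454 (4 of 7), against 0.034 and 0.018 for the 39 without. In the library labelled LV-3+4 the medians were -0.062 and 0.056. In the miR-301a knockout they were 0.25 (6 of 7 above 0) and 0.031 (20 of 39), with 1071 of 2135 measured genes with a site above 0. In the miR-454 knockout they were 0.032 and -0.0011. Over all measured genes these medians lay between -0.031 and 0.008 in these 5 libraries, with or without a site. SGK3, whose calls are uncertain, is among the 7. With its read-through summed it was at -0.091 in the miR-301a knockout, so the 6 of 7 and its median depend on that entry. RRAGD, with 2 sites, was at 0.53 in the miR-301a knockout and PIK3C3, with 1, at 0.46, neither past 1.5-fold. No member with a site other than SGK3 passed 1.5-fold in a microRNA library.

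In the miR-301a knockout 1 of 46 members passed 2-fold (10.9% of all genes), SGK1, and 4 passed 1.5-fold (24.5%), with FOXO4 and PIK3C2B also higher and EIF4EBP1 lower. In the miR-454 knockout 1 passed 2-fold (9.71%), PIK3C2B, and 3 passed 1.5-fold (22.7%), with EIF4EBP2 also higher and PIK3R3 lower. At 5 CPM or more in either library, 4 of 44 (21.3% of such genes) and 2 of 43 (19.1%) passed 1.5-fold in the knockouts of miR-301a and miR-454. The median sizes were 0.24 and 0.22, against 0.31 and 0.30 over all genes. The 4 immune genes summed to 43.4 CPM in CRISPRd_Control and 116 and 144 in the knockouts, mostly CD68, with CD3E at 0, and PTPRC reached 4.04 CPM. The 9 A549 genes summed to 20196, 30642 and 33276 CPM. Their part was not tested.

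Of 67 further pathway genes outside the 46 members, listed with earlier results of these data known, 57 to 59 were measured in each pair. With the promoter guide 7 of 58 were past 2-fold higher and 1 lower, against 15.4% of all genes past 2-fold. PRR5L, an mTORC2-binding protein, was at 3.46 and 11.5 CPM (log2 1.60), DDIT4L, an mTORC1 inhibitor, at log2 1.42 and the adaptor PIK3AP1 at 1.35. In LV-miR454 2 of 59 were higher and 2 lower (6.39% of all genes), among them EIF4EBP3 (1.32), the stress-induced mTORC1 inhibitor DDIT4 (-1.17, 259 to 115 CPM) and PRR5L (1.15). The miR-301a knockout held 4 of 58 higher and 2 lower (10.9% of all genes), with SESN3, a sestrin that restrains mTORC1, at 2.299, the cell cycle inhibitor CDKN1B at 1.89 and DDIT4L at 1.67. The miR-454 knockout held 5 of 58 higher and 0 lower (9.71% of all genes), with DDIT4L at 2.87, SESN3 at 1.91 and CDKN1B at 1.58. SESN3 was low in CRISPRd_Control itself, at -1.11 to LV-vector-34. CDKN1B was also lower there, at -0.61, and PRR5L higher, at 0.61, each past 1.5-fold. The other 5 treated libraries held 0 past 2-fold. The list's median log2 ratio lay between -0.031 and 0.057 in the 9 treated libraries.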

How the data were processed

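Poly(A) RNA was measured in 13 A549 libraries, 1 per group. Per the submitters' processing notes, RSEM 1.3.3 and Bowtie2 2.3.5.1 were used with GRCh38.p13. The annotation release and strandedness were not given in the sources used here. Reads may therefore be shared by overlapping or antisense genes. Deposited by the authors were 3 tables of RSEM's expected counts (fractional estimates), rounded here to whole numbers. For CRISPRi, 181 entries without a name, 0.355% and 0.431% of the counts, were left out. For the microRNA and knockout libraries, 4840 numbered copies of symbols were summed per symbol.

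Libraries were scaled by TMM within tables (R 4.3.3, edgeR 4.0.16) and log2 ratios used CPM + 0.5. Intervals are exact Clopper-Pearson 95% intervals of the CPM ratio. They cover counting error only, as do limits from 0 counts (3 counts), because each group is 1 library. Reads lack molecular identifiers, so duplicate reads count as separate and the intervals may be too narrow. The 2 lentiviral layouts were fitted with edgeR's quasi-likelihood test for genes reaching 1 CPM in 2 or more libraries, with DESeq2 1.42.0 as an alternative. The edgeR fit was tested on simulated data for the PRR11 and miR-301a labels, and the DESeq2 fit was not. Gene positions, exon lengths and 3′ UTRs came from GENCODE 29 (GRCh38), microRNAs from RefSeq, and all 46 members matched.

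Members and gene lists were chosen with earlier results of these data known. Values in all 13 libraries are given for members past 2-fold in any treated library, for up to 4 higher and 4 lower past 1.5-fold per comparison and for up to 4 per label in the additive fits. They are also given for PIK3CA, AKT1, AKT2, MTOR, RPTOR and RICTOR. Other pathway genes were named up to 3 past 2-fold per comparison, and RPS6KB1 was added beside RPS6KB2. Alternatives were other library scaling, other filters on low counts, a pseudocount of 0.1 CPM and copies left out. The summing of overlapping transcripts and the use of the other control library were added after seeing the data.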

Additional observations from a re-analysis of the deposited data

How the results depend on the processing

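No paired analysis was possible because each group is 1 library. Of the counts under the alternatives, 305 stayed within 1.5 times and 30 did not, and of the named members' ratios 711 stayed within their counting interval, 74 moved beyond it and 1 reversed. Some counts moved between small numbers, and the causes were not tested unless the change itself removes a gene. With the promoter guide, members higher past 2-fold went from 0 to 1 with DESeq2 size factors, 1 with total counts and 3 with a pseudocount of 0.1 CPM. With overlapping transcripts summed, SGK3 in LV-PRR11 reversed in sign to 0.17, with a counting interval that includes equality. The 1 lower call past 1.5-fold there became 0. The 1 higher call past 2-fold and past 1.5-fold became 0 in LV-miR454 and in the library labelled LV-miR301a, as did the 1 higher past 1.5-fold between the controls. The 1 call for the SKA2 label became 0 with SGK3 summed, and DESeq2 gave no adjusted p for it. With the other control library, LV-miR454 had 0 lower past 2-fold, 2 higher and 1 lower past 1.5-fold. The library labelled LV-miR301a then had 3 higher past 1.5-fold, and the library labelled LV-3+4 had 1 higher past 2-fold, 2 higher and 1 lower past 1.5-fold. The miR-301a knockout then had 2 higher past 2-fold, and the miR-454 knockout 1 lower past 2-fold and 3 lower past 1.5-fold. Total counts in place of TMM moved the median gene of the miR-454 knockout by -0.11, and gave 0 higher and 1 lower past 2-fold and 1 higher past 1.5-fold there. They gave 2 lower past 2-fold and 1 role past 1.5-fold in LV-miR454, and 0 lower past 2-fold between the controls. In the miR-454 knockout a pseudocount of 0.1 CPM gave 1 lower past 2-fold, leaving copies out 1 higher past 1.5-fold, and a filter of 5 CPM 0 lower past 1.5-fold. That filter also removed the 1 higher call past 1.5-fold between the controls, leaving 0. Precision is limited most for members of few counts, such as PIK3R3, SGK3 and FOXO4.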

Other observations

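Ratios between members of 1 library, per exon length, do not depend on how libraries are scaled. They can still depend on which entries a table lists, and the intervals given cover counting error only. PIK3CD relative to PIK3CB was 0.251 (0.213 to 0.296) with the mock guide and 0.832 (0.728 to 0.9503) with the promoter guide. AKT2 relative to AKT1 was 1.06 (1.02 to 1.11) and 0.847 (0.811 to 0.884) in the same pair. In the knockout set it was 0.906 (0.867 to 0.947) in CRISPRd_Control and 0.760 (0.724 to 0.797) in the miR-301a knockout. The miR-454 knockout gave 0.635 (0.606 to 0.665), the lowest of its table. RICTOR relative to RPTOR was 0.519 (0.476 to 0.565) in LV-vector-34, 0.258 (0.231 to 0.287) in LV-miR454 and 0.293 (0.265 to 0.323) in CRISPRd_Control, so a control library came near LV-miR454. EIF4EBP1 relative to EIF4EBP2 was 30.5 in CRISPRd_Control and 10.9 and 15.8 in the knockouts of miR-301a and miR-454, and 26.5 in LV-vector-34. No replicate library checks any of these differences.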
